A study of Drosophila melanogaster with 4 samples.

Results

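The Homothorax peaks described here lie on chromosome arm 2L in the stretch that holds the paralogous zinc finger genes elB (elbow) and noc (no ocelli) with their flanks. They were chosen by position, as every peak with its centre between 14355000 and 14595000 on FlyBase release 5, which gave 64 of the 6207 peaks in the authors' table. The 20 peaks centred below 14410000 are called the elB side and the 44 peaks from there on the noc side. The stretch was picked with its peaks already known, so the numbers, widths and scores below are a description without any test. The limits of the stretch were given as those of the pair with its flanks, and the place of the genes was not checked here. No annotation of release 5 was used here, so no peak is assigned to a promoter, exon, intron or UTR.

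The table comes from chromatin immunoprecipitation and sequencing (ChIP-seq), which maps the DNA bound by a protein in cross-linked chromatin. The ChIP group holds 2 libraries made with an unpurified guinea pig polyclonal serum against full-length Homothorax, and the input group holds 2 libraries of input DNA. All 4 come from whole embryos of unknown sex, of the strain labelled Y cn bw sp, with a stage label of 0 to 8 h, although the extract protocol opens with a laying window of 8 to 16 h. All libraries share 1 genotype. It is listed with y[1] and oc[R3.2] in its first group of alleles, with the markers cn[1], bw[1] and sp[1] beside Gr22b[1], Gr22d[1] and CG33964[R4.2] in the second. The last group has Rh6[1], GstD5[1] and MstProx[1] beside LysC[1] and lab[R4.2]. The authors deposited 1 score for each peak of the series along with its limits, and no value for a single library, so neither ChIP and input nor the replicates could be compared here. The scale of the score and the read depth are unknown. In whole embryos, a larger share of cells bound and stronger binding per cell cannot be told apart.

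Homothorax belongs to the TALE homeodomain proteins. It pairs with Extradenticle on DNA, brings that protein into the nucleus and serves with it as a partner of Hox proteins. The elB and noc genes encode related C2H2 zinc finger proteins of the NET family, which recruit the corepressor Groucho. In the fly embryo elB is known for its role in the migration of tracheal branches, and noc for its role in the embryonic head, with adult mutants that lack ocelli. Both genes also act in the proximodistal subdivision of legs and wings, where hth marks the proximal part. In the RefSeq gene table of release 6, used only for names and order, 8 genes start between elB and noc, of which 3 encode proteins. These are Pburs, a subunit of the cuticle-hardening hormone bursicon, Cpr35B, a cuticular protein, and CG15283. Beyond noc, 18 further genes start before osp (outspread), of which 4 encode proteins and 7 are tRNA genes.

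Homothorax peaks were frequent on both sides of the border. Those on the elB side were mostly narrow and low in score, whereas those on the noc side included the widest of the whole list. The sides are set by position alone, so no peak is placed nearer to either gene. The elB side held 3.64 peaks per 10 kb and had 22.4% of its 55.0 kb inside peaks. The noc side held 2.38 peaks per 10 kb and had 82.2% of its 185 kb inside peaks. The side with fewer peaks for its length was therefore the more covered one. Together the 64 peaks were 1.03% of all peaks of the list and held 3.47% of all bases inside peaks.

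**Figure D1:**
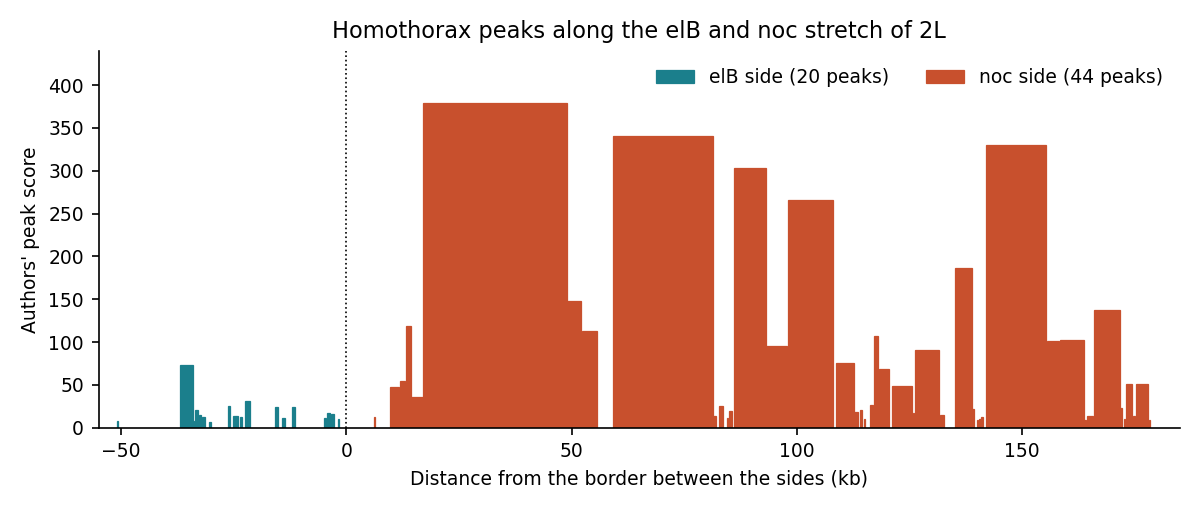
Each bar is 1 peak of the elB and noc stretch, drawn to scale from its start to its end, with the distance from the border between the sides in kb on the x axis and the authors' peak score on the y axis. The 20 peaks of the elB side reach at most 73.38, and 13 of the 44 peaks of the noc side score 100 or more.

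On the elB side 1 peak stood above the others. It lay at 14373086 to 14375920, was 2.83 kb wide and scored 73.38, rank 452 of the 6207 peaks. The other 19 scored 6.39 to 31.29 with a median of 13.50. The median of the whole side was 13.79, against 16.91 in the rest of the list, and 38.0% of all peaks scored below it. Only 1 of the 20 peaks scored 40 or more (5.0%, 95% Wilson interval 0.888 to 23.6%), against 17.5% of the whole list. The interval covers counting error only, and neighbouring peaks share their libraries. Over 2 kb wide was again only the peak at 14373086 (5.0%), against 6.44% of the whole list.

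The peaks of the elB side fell into small groups. The first member, at 14359066 to 14359281, was a lone peak of 216 bp with a score of 7.64, and 13.8 kb without a peak followed it. Next came 7 peaks at 14373086 to 14379854, which open with the highest peak of the side and go on with 6 peaks of up to 20.38. The 5 peaks at 14383713 to 14388655 scored 13.20 to 31.29, and the last of them, 1258 bp wide, was the second highest of the side. The 3 peaks at 14394154 to 14398609 scored 11.87 to 24.85. The 4 peaks nearest to the border, at 14405113 to 14408444, scored 9.86 to 17.66. The longest gap inside any of these groups was under 2 kb, and the groups lay 3.86 to 13.8 kb apart.

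The scores of the noc side ran from 8.72 to 379.52. The median was 41.54, against 16.91 in the rest of the list. Scores of at least 40 thus made up 50.0% of the noc side (95% Wilson interval 35.8 to 64.2%), against 17.5% of the whole list. Like that of the elB side, this interval covers counting error only. It treats the peaks as independent, although they share their libraries and many lie close together, so it is no test against the list. Scores of at least 100 were found in 13 peaks (29.5%), against 4.32% of the whole list. Over 2 kb wide were 19 peaks (43.2%), against 6.44% of the whole list. These shares describe a stretch that was picked for its peaks, and nothing is read from their distance to the list.

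**Figure D2:**
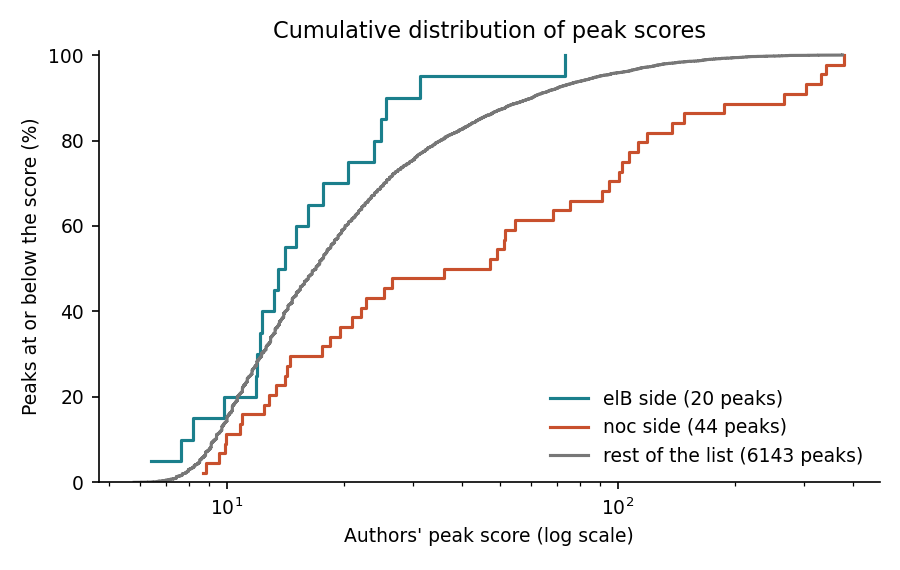
The share of peaks at or below each score, in percent, is plotted against the authors' peak score on a log axis for the elB side (20 peaks), the noc side (44 peaks) and the rest of the list (6143 peaks). The medians are 13.79 on the elB side and 41.54 on the noc side, against 16.91 in the rest of the list.

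The noc side was broken by 3 gaps of more than 1 kb, which leave a lone first peak and 3 blocks. The lone peak, at 14416154 to 14416449, scored 12.44 and lay 7.71 kb beyond the last peak of the elB side. The first block, at 14419578 to 14465578, held 7 peaks that covered 97.7% of its 46.0 kb. The second block, at 14469186 to 14542720, held 19 peaks that covered 91.5% of its 73.5 kb. The third block, at 14545140 to 14588444, held 17 peaks that covered 91.5% of its 43.3 kb. The gap of 3.61 kb between the first 2 blocks was the longest on the noc side, and the gap between the other two was 2.42 kb.

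The scores of the first block started at 36.00. Its centre was the peak at 14426979 to 14458909, which was 31.9 kb wide, scored 379.52 and ranked first of the list in both measures. On the elB-facing side it was preceded by peaks scoring 47.08, 54.56, 118.66 and 36.00, and on the far side it was followed by a peak of 148.15 at 14459067 to 14462175 and a peak of 112.77 at 14462318 to 14465578. The lowest score of the block, 36.00, belonged to the peak of 2494 bp directly before the widest one.

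The second block held 4 peaks over 5 kb wide and many narrow ones. Its first peak, at 14469186 to 14491422, was 22.2 kb wide and scored 340.68, the fourth highest value of the list. The peak at 14495989 to 14503050 was 7.06 kb wide and scored 302.73, the ninth highest value, and the peak at 14507941 to 14518073 was 10.1 kb wide and scored 265.76. Between the first of these and the second lay 4 peaks of 276 to 864 bp in 4.14 kb, with scores of only 10.97 to 25.18. Another 4 narrow peaks, at 14522775 to 14526902, scored 9.91 to 26.43. Directly after them the peak at 14527114 to 14528118 scored 106.71 over 1005 bp. The wide peak at 14536183 to 14541524, in contrast, scored 90.93 over 5.34 kb.

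The third block resembled the second in its mixture of widths. The peak at 14552058 to 14565347 was 13.3 kb wide and scored 330.10, the fifth highest value of the list. It was preceded by 4 peaks of 229 to 457 bp, with scores of 8.72 to 22.06, which separate it from a peak of 3.74 kb at 14545140 to 14548882 with a score of 186.58. After it came peaks of 100.84 at 14565498 to 14568192, of 102.77 at 14568328 to 14573635 and of 138.00 at 14575957 to 14581742. Scores were lower towards the end of the block, where no peak after 14581742 exceeded 51.49. The last member, at 14588168 to 14588444, scored 8.85 over 277 bp.

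**Figure D3:**
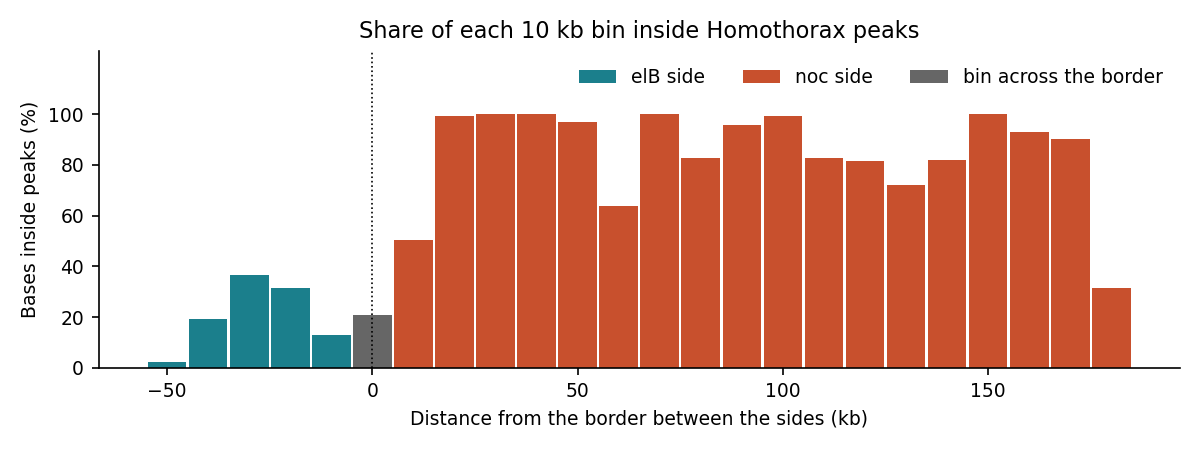
Bars give the share of bases inside peaks, in percent, for 24 bins of 10 kb, with the distance from the border between the sides in kb on the x axis; the dark bar is the bin that spans the border. The 5 bins of the elB side lie between 2.16% and 36.4%, and the 18 bins of the noc side between 31.6% and 100.0%, with 10 of them above 90%.

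A few peaks carried most of the cover on the noc side. The 4 peaks with a score of 300 or more, a class that is 0.145% of the whole list, spanned 74.5 kb, or 49.0% of the bases inside peaks on that side. They were 4 of the 9 peaks of this class in the list. The 14 peaks that scored 100 or more or were over 5 kb wide spanned 116 kb (76.2%). The other 30 peaks spanned 36.2 kb, with scores of 8.72 to 95.15 and a median of 18.95. Over 5 kb wide were 8 peaks of the noc side (18.2%), against 0.661% of the whole list. Over 10 kb wide were 4 of its peaks (9.09%), against 0.0806% of the whole list. With only peaks of 100 or more counted, 59.8% of the noc side was still covered and none of the elB side.

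By median, scores on both sides were near the middle of those of other peaks of the same width, apart from the widest noc side peaks. On each side width and score rose together, with a Spearman rho of 0.81 over the 20 peaks of the elB side, 0.90 over the 44 peaks of the noc side and 0.81 over the 6143 other peaks. All points share the same libraries. Peaks were then set against the rest of the list within width classes that double from 200 bp. The median member of the elB side scored above 44.7% of the other peaks in its class. That of the noc side scored above 45.4%, over the 41 of its peaks with others in their class. Single peaks varied widely, from 0.243% to 81.4% on the elB side and from 2.69% to 100% on the noc side. Between 3200 and 6400 bp the 8 peaks of the noc side had a median score of 98.96, against 113.52 for 103 others. Between 200 and 400 bp the 8 peaks of the elB side had a median of 11.00 and the 9 of the noc side 9.98, against 11.18 for 2472 others.

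The peaks of up to 1 kb were alike in median score on both sides of the border. The 18 such peaks of the elB side had a median score of 13.35 and the 19 of the noc side 14.09, against 14.17 for the 4913 in the rest of the list. The sides differed in the number of peaks over 2 kb wide, which was 1 on the elB side and 19 on the noc side. Between 6400 and 12800 bp the 2 peaks of the noc side scored 302.73 and 265.76, against a median of 188.18 and a highest score of 263.64 for 14 others. The 3 widest peaks, over 12800 bp, had no counterpart of their width elsewhere in the list. Of the peaks between 800 and 1600 bp, those that scored high for their width were the one at 14423273 to 14424289, with 118.66 over 1017 bp, and the one at 14527114 to 14528118 named above, which exceeded 96.9% and 95.2% of the other peaks in their class. In the same class, the peaks at 14574387 to 14575754, with 13.36 over 1368 bp, and at 14541691 to 14542720, with 14.56 over 1030 bp, exceeded only 2.69% and 4.07% of the others. Wider peaks with high scores for their width lay at 14459067 to 14462175 and at 14545140 to 14548882. They scored 148.15 over 3109 bp and 186.58 over 3743 bp, and exceeded 91.5% and 83.5% of their classes. Wider peaks with low scores for their width lay at 14531028 to 14535525 and at 14424398 to 14426891. Their scores were 49.08 over 4498 bp and 36.00 over 2494 bp. They exceeded 14.1% and 15.3% of their classes.

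**Figure D4:**
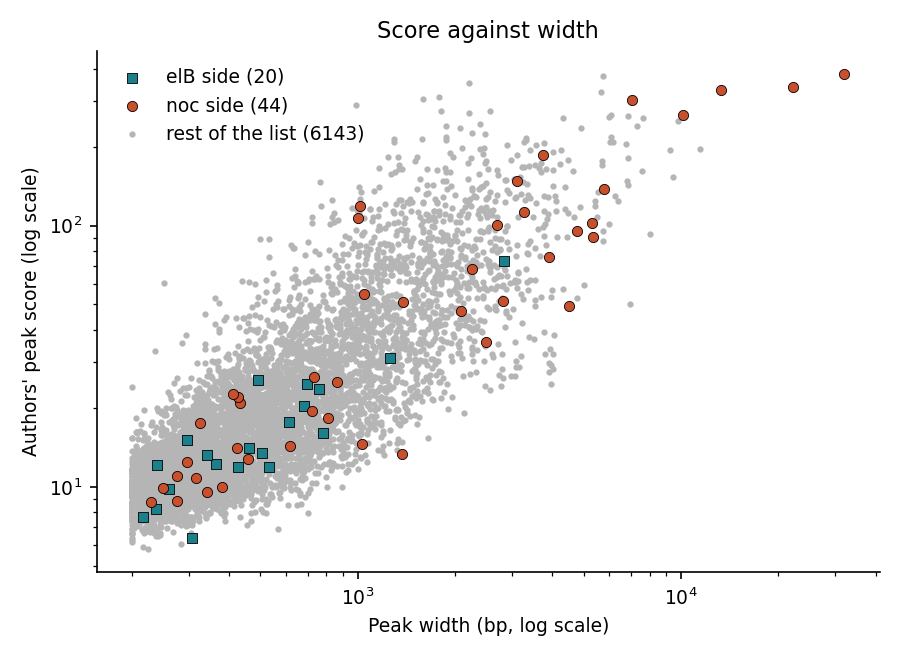
Each point is 1 peak, with its width in bp on the x axis and the authors' score on the y axis, both on log axes, for the elB side (20), the noc side (44) and the rest of the list (6143). Peaks of both sides under 6400 bp lie within the cloud of other peaks, and the 3 widest peaks of the noc side, with scores of 330.10 to 379.52, lie to the right of all others.

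Neighbouring peaks lay close to each other on the noc side. The median gap between neighbours was 580 bp on the elB side and 197 bp on the noc side, against 1668 bp in the rest of the list on the 6 arms. A gap under 200 bp followed 5 of 19 peaks on the elB side (26.3%) and 22 of 43 on the noc side (51.2%), against 14.8% of all adjacent pairs on the arms. These gaps, like the numbers and widths of peaks, can depend on how the peak caller joins or splits enriched DNA, which was not tested. The setting used for this is not stated in the labels or the table.

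The peaks on both flanks of the stretch lay at a distance. The nearest peak before it, at 14285521 to 14285760, scored 20.04 and lay 73.3 kb before the first member. The nearest after it, at 14627177 to 14628083, scored 30.24 and lay 38.7 kb beyond the last member. Both lay far outside the limits of the rule, so small shifts of these limits would add no peak. The 240 kb before the stretch held 16 peaks and were 4.84% covered, and the 240 kb after it held 8 peaks and were 2.75% covered, and the stretch itself was 68.5% covered. The median over 11614 windows of the same length elsewhere on the arms was 8 peaks and 2.10% cover, so neither flank was below it.

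Among stretches of the same length the elB and noc stretch was first in cover but not in number of peaks. Of 11614 windows of 240 kb, stepped by 10 kb over the 6 arms and free of the stretch, none had more bases inside peaks, and the highest reached 45.8%, at 3R 2630001 to 2870000. The stretch held 64 peaks, and 117 of these windows (1.01%) held more, up to 107. It held 13 peaks with a score of 100 or more, and the highest other window held 12. Neighbouring windows overlap. The stretch was picked with its peaks known, whereas the other windows lie on a fixed grid, which favours the stretch. These ranks are therefore a description only.

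The run on the noc side was set beside the next 3 runs by bases inside peaks, where a run is a row of peaks with gaps of at most 5 kb. It held 152 kb inside peaks, against 70.9 kb in the run at 2L 21451050 to 21543478, 68.3 kb in the run at 2L 21788757 to 21899724 and 53.9 kb in the run at 3R 6415929 to 6499955. The median width was 1038 bp in the noc run, close to the 1085 bp of the first of these, and above the 582 bp and 502 bp of the other two. The noc run had 13 peaks with a score of 100 or more, against 0, 5 and 6 in these runs in the same order. As a share of peaks, this was 29.5% in the noc run and 17.1% in the run on 3R, the nearest of the 3. It had 8 peaks over 5 kb wide, against 0, 3 and 5. The run of similar median width had no score above 37.65. On the elB side the longest run, with 12 peaks at 14373086 to 14388655, was number 113 of 1981 by bases inside peaks.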

How the data were processed

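The data are 1 peak table that covers the whole series. Per the file headers it is on FlyBase release 5 and was written by MACS. The submitters' processing notes name BDGP5, CASAVA (versions 1.7.0.2 and 1.7.0.3), BWA and MACS2, with no version for the last 2. The authors deposited 1 score per peak, and its scale, the calling threshold and any pooling of replicates are not given in the sources at hand. Cross-linking took 15 min in 1.8% formaldehyde, per the labels' protocols. Widths count both end positions, centres are midpoints, and other values are counts, medians and covered bases computed with Python 3.11.15, numpy 2.4.6, pandas 2.3.3 and scipy 1.17.1, with plots from matplotlib 3.10.9. The functions for runs, cover and width classes were checked on simulated peaks. Peaks named in full were those of 40 or more on the elB side, those of 100 or more or over 5 kb on the noc side, the first and last members, those nearest the border and the nearest outside. Other peaks named were chosen after their values were seen. The members and rules were chosen with earlier results of these data known. No genome sequence was used, so no motif was searched. Read depth is unknown.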

Additional observations from a re-analysis of the deposited data

How the results depend on the processing

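Of 30 alternatives to the described values, 18 were labelled close and 12 moved, and none bears on a test. Counts and ranks were labelled by a fixed ratio to the described value, and other values by its 95% interval. The interval for cover counts single bases and is very narrow, so 78.9% in place of 82.2% on the noc side was labelled moved. The interval for shares of peaks is wide, so 63.6% in place of 50.0% was labelled close. The labels therefore do not rank the size of the changes. With only the upper 50% of scores in the list, the elB side had 7 peaks and 13.3% cover, and the noc side had 78.9% cover. Merging of peaks closer than 1 kb left 6 peaks with a median score of 24.32 on the elB side and 4 with a median of 335.39 on the noc side. Each merged peak kept the highest score of its parts, so these medians depend on how many peaks were joined. No median of the merged rest of the list was computed, so nothing is read from the difference between the sides. Measured from the first peak to the last, cover was 24.9% on the elB side and 88.3% on the noc side. With a cutoff of 20 in place of 40, 30.0% of the elB side and 63.6% of the noc side passed. Such scores are common in the list, where the elB side peak of 20.38 ranked 2467 of 6207. The share of the whole list at this cutoff was not computed, so nothing is read from these shares. The elB side formed 2 runs with gaps of up to 10 kb, and the noc side 4 with gaps of up to 2 kb. No paired analysis was possible because each peak has 1 value for all libraries together. Leaving out a replicate was not possible either. Depth limits could not be set.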
